A study of Mus musculus with 20 samples.

Results

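The genes described here were the 10 members of the MHC class I antigen presentation pathway H2-K1, H2-D1, B2m, Tap1, Tap2, Tapbp, Psmb8, Psmb9, Psmb10 and Nlrc5. They were chosen by name, with no threshold on their values, from 17101 genes measured by RNA-Seq. All 10 were in the table and passed the filter on low values in every comparison. The 20 libraries were made from donor T cells sorted from the spleens of transplanted mice on day +10. The 5 groups, of 4 libraries each, were CD4+ and CD8+ cells of either genotype and CD4+CD8+ double-positive (DP) cells of KO donors. KO donors were labelled DNMT3a KO (CD4-Cre 2loxP), and WT donors were littermates with an intact gene for this de novo DNA methyltransferase. Donors were B6 (H-2b) mice of 6 to 12 weeks, and recipients were irradiated female B6D2F1 (F1, H-2bxd) mice of 8 to 12 weeks, so all 5 groups, WT included, were taken from T cells responding to an allogeneic host. KO animals carried the numbers 1 to 4 and WT animals the numbers 2, 3, 5 and 6. Cre was driven by the Cd4 promoter, which is active before thymocytes commit to either lineage, so CD4+ and CD8+ cells both carried the deletion, while DP cells of WT donors were not used here.

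MHC class I molecules carry peptides from inside the cell to its surface, where CD8+ T cells read them. H2-K1 and H2-D1 encode polymorphic heavy chains, and B2m encodes the light chain that both need. The peptides are cut by proteasomes, in which the interferon-inducible subunits Psmb8, Psmb9 and Psmb10 take the places of the constitutive subunits Psmb5, Psmb6 and Psmb7. Tap1 and Tap2 form the transporter that moves peptides into the endoplasmic reticulum, and Tapbp (tapasin) holds the empty class I molecule beside it. Nlrc5 is the transactivator that joins RFX factors on class I promoters, as Ciita does on class II promoters, and lymphocytes express it at high levels.

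Of the 10 genes, 7 lie in the MHC on chromosome 17 of GRCm38.p6, the assembly of mm10: H2-K1 at chr17:33996012-34000619, H2-D1 at chr17:35263094-35267497, Tap1 at chr17:34187556-34197225, Tap2 at chr17:34204479-34216321, Tapbp at chr17:33919478-33929290, Psmb8 at chr17:34198195-34201454 and Psmb9 at chr17:34182030-34187330. B2m lies at chr2:122147687-122153082, Psmb10 at chr8:105935728-105938392 and Nlrc5 at chr8:94434335-94527272. RefSeq promoter windows, from 250 bases before to 50 bases after the start, were matched by symbol for 8 of the 10. Those of H2-K1 (chr17:34000298-34000597, minus strand) and H2-D1 (chr17:35262844-35263143, plus strand) are shown because the transcripts of these heavy chains differed in opposite directions between KO and WT cells, though neither passed the threshold. The H2-K1 window belongs to the first of 2 starts listed for it, and lies within the gene's span because longer predicted transcripts start further upstream. That of Tap1 (chr17:34187306-34187605, plus strand) is shown because Psmb9 is transcribed away from Tap1 with a start 225 bases off, so that 275 of the 300 bases are also its own promoter window on the other strand, while Psmb9 was lower in KO cells and Tap1 did not pass the test. That of B2m (chr2:122147437-122147736, plus strand) is shown for the light chain shared by both heavy chains. Sequences run 5′ to 3′, and capitals mark the motifs searched.
H2-K1: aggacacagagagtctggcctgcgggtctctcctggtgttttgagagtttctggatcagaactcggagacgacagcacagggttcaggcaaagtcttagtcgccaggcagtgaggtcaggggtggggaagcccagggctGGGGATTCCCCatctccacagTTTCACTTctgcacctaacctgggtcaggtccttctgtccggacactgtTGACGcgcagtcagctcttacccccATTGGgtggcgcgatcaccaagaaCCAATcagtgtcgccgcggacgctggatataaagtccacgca
H2-D1: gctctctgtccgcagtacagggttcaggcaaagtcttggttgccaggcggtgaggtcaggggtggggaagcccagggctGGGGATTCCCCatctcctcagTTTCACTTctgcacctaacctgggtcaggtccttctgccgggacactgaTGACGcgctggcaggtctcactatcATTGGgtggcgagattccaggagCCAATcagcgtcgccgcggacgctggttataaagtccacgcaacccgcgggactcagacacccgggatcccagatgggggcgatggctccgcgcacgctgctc
Tap1: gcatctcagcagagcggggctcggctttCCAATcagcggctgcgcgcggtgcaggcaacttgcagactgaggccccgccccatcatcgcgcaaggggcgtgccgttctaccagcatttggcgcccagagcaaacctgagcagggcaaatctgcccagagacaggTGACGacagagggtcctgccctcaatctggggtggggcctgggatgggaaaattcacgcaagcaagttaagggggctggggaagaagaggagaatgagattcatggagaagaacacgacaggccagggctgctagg
B2m: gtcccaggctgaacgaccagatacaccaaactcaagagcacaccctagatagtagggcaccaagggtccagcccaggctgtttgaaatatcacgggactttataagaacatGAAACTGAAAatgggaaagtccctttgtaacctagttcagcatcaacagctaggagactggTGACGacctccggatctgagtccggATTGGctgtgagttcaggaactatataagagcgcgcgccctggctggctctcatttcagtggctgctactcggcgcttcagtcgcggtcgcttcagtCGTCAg
The motifs were searched on both strands, where N is any base. They were an interferon-stimulated response element (ISRE, GAAA, any 2 bases, then GAAA again), the shorter IRF core that lies within it (AANNGAAA), a gamma-activated site (GAS, TTCNNNGAA), the Y box (CCAAT), the core of the X2 box (TGACG) and a kappa B site (GGGGA, any base, then TCCC). In 32851 promoter windows of the same length they were present in 3.44%, 23.9%, 8.30%, 37.4%, 20.8% and 0.323%. The kappa B letters were in the windows of H2-K1 and H2-D1, the ISRE in that of B2m and the IRF core in these 3. The Y box was in 6 of the 8 windows, the X2 core in 5 and the GAS letters in 1, that of Psmb8. In a global alignment, 225 of 253 paired bases (88.9%) of the H2-K1 and H2-D1 windows were identical, and both held the same searched motifs in the same order. Tap1 and Psmb9 share the X2 core and the Y box printed above. A match is a description of letters, not of a bound site.

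Between 37547651 and 46966318 reads fell on genes in each library. The deposited values were normalized counts, that is, reads divided by 1 size factor for each library, so values of 1 gene can be set side by side across libraries. Dnmt3a lay between 650.4 and 2007 normalized counts in the 12 KO libraries and between 3542 and 5171 in the 8 WT libraries. Cd4 and Cd8a followed the sorted subset in every library, though not equally cleanly. In KO CD4+ libraries Cd8a reached 3771 (median 171) and Cd8b1 4515 (median 705), against highest values of 586 and 549 in WT CD4+ libraries. Cd8a was at 45783 to 68740 in KO CD8+ libraries. Cd4 was at 302 to 458 in KO CD8+ libraries, against 9.88 to 79.6 in WT CD8+ libraries. DP libraries held Cd8a at 41594 to 68516 and Cd4 at 8758 to 15351, against Cd4 at 44804 to 74386 in KO CD4+ libraries. DP cells of KO animal 3 stood apart, with 11783 genes detected against 13203 to 14198 in the other KO libraries, so differences of DP cells, levels across groups and correlations are also given without it. The libraries are bulk RNA, so a change in the makeup of the sorted cells and a change in RNA per cell cannot be told apart. Of 13 myeloid and dendritic markers, 7 were lower in KO than in WT CD4+ cells and 4 in CD8+ cells. The summed level of the 13 was 2061 to 3670.0 against 3351 to 3835 in CD4+ and 7226 to 17953 against 10420.5 to 14416 in CD8+ libraries. Itgax was the largest part of the CD8+ sums, at 4515 to 11587 in KO and 6000 to 9242 in WT libraries. It was at 606 to 1964 in KO and 626 to 979 in WT CD4+ libraries. The 7 neutrophil markers summed to 5.89 to 4211 in KO CD4+ and 12.4 to 2736 in KO CD8+ libraries, against 2294 to 3507 and 1822 to 4384 in the WT libraries. The medians of these sums were 286 against 3222 in CD4+ and 330 against 2494 in CD8+ cells. In each subset 1 of the 7 passed as lower in KO cells, and 6 were lower at an unadjusted p under 0.05 (limma). Of the B cell markers, Ms4a1 and Pax5 did not exceed 4.39 and 7.35 in any library. Of the 3 tested, 2 passed as higher in KO CD4+ cells (Cd79a and Cd79b) and 1 in KO CD8+ cells, and 0 passed as lower. The remaining marker, Cd22, was lower in KO CD4+ cells at an unadjusted p under 0.05 (limma), with a median of 923 against 1407. Of 4 NK cell markers tested, 2 were higher in KO CD4+ cells, and 2 were higher and 2 lower in KO CD8+ cells, where the list summed to 36294 to 233088 against 16309 to 24775 in WT libraries. In CD4+ libraries that sum was 3879 to 37252 in KO and 1989.5 to 2831 in WT cells. Gzma was the largest part of these sums, at 34225 to 229921 in KO and 11804 to 20577 in WT CD8+ libraries. Klrb1c was higher in KO CD8+ cells as well (672 to 3066 against 70.1 to 312). Eomes (1280 to 2193 against 3519 to 4824) and Klre1 (56.8 to 227 against 337 to 439) were the lower markers there. Ncr1 did not exceed 4.49 in KO CD8+ libraries and was 0 in KO CD4+ libraries. None of the 3 erythroid and 8 pancreatic acinar markers passed in either subset (limma), though 3 and 2 of the erythroid markers were lower and 2 and 3 of the acinar markers higher at an unadjusted p under 0.05 in CD4+ and CD8+ cells. The erythroid markers summed to 16.7 to 1131 in KO and 656 to 3335 in WT CD4+ libraries. The part of these cells in the results on class I genes was not tested.

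Per kilobase of exon, which allows genes to be compared with each other, the members fell into 4 tiers that did not overlap over the 5 group means. B2m (83431 to 103927 normalized counts per kilobase, lowest to highest group mean) and H2-K1 (70239.6 to 116964) were highest and overlapped each other. Psmb8 followed at 22217 to 32689. Psmb9 (11006 to 15215), H2-D1 (9981 to 13373), Psmb10 (7325 to 11680.0), Tap1 (9173 to 10754), Tap2 (8029.7 to 9876) and Tapbp (7724 to 9741) formed an overlapping middle tier. Nlrc5, the transactivator, was lowest at 1413 to 3126. Without the DP library of animal 3 the 4 tiers still did not overlap, with Psmb8 at 22217 to 25792, Psmb10 at 7325 to 8946 and Nlrc5 at 1485 to 3126. H2-K1 alone took 0.450 to 0.488% of all normalized counts in WT CD4+ libraries and 0.251 to 0.404% in KO CD4+ libraries. In CD8+ libraries its share was 0.334 to 0.373% in WT and 0.196 to 0.318% in KO, so that the genotypes did not overlap on this scale in either subset. H2-K1 and H2-D1 belong to a family of like genes: 11.03% and 14.7% of the 47-base windows in their transcripts, the length of a read, also occur in another gene, so their counts are less certain than those of B2m, Psmb9, Psmb10 and Nlrc5, where 0 windows were shared.

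**Figure D1:**
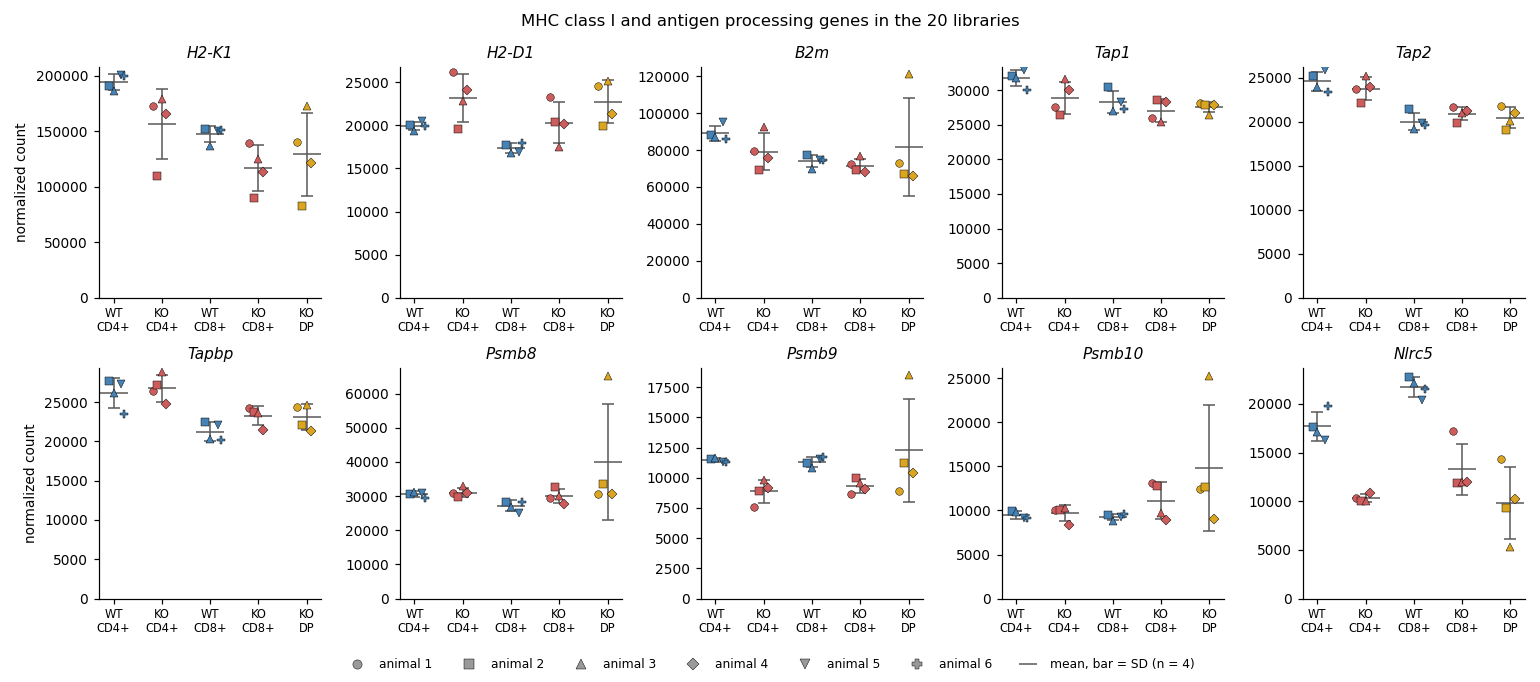
Normalized counts (y axis, from 0) of the 10 genes in the 20 libraries, by group; each point is a library, its shape the animal number within a genotype (equal numbers in KO and WT are different animals), and bars are mean and SD. Nlrc5 and Psmb9 lie lower in every KO CD4+ and CD8+ library than in the WT libraries of the same subset, and KO DP animal 3 (triangle) lies far above the other DP libraries for B2m, Psmb8, Psmb9 and Psmb10 and below them for Nlrc5.

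The comparison of KO with WT cells asked whether loss of Dnmt3a in donor T cells changed the level of these transcripts after transplantation. Nlrc5 and Psmb9 were lower in KO cells in both subsets, and the other 8 members did not pass the threshold (limma, adjusted p under 0.05 over all genes tested). Among the members the difference was largest for Nlrc5, which fell by 41.6% in CD4+ cells, and in CD8+ cells it fell by 39.6%. The 2 lower members of 10 stand against 9.77% of all 12391 genes called lower in CD4+ cells and 12.5% of 12383 in CD8+ cells, and 2 of 10 is close enough to these shares that the count by itself is no result about the members. Of all genes, 8.59% were called higher in CD4+ and 12.6% in CD8+ cells, and 0 members were called higher by limma, edgeR or DESeq2, with 1, H2-D1, at an unadjusted p under 0.05 in each subset. With every library rescaled to the same total count, an alternative added once the values were known, the median over all genes of the log2 fold change moved by -0.0858 in CD4+ and -0.106 in CD8+ cells. Then the share of calls that were higher was 25.4% for CD4+ and 26.5% for CD8+ cells, against 46.8% and 50.2% here, and 0 members were higher. The CD4+ and CD8+ libraries of a genotype came from the same animals, so the 2 subsets are not independent tests.

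In CD4+ libraries, Nlrc5 was at 10380.1, 10049, 9996 and 10828 normalized counts in KO animals 1 to 4 and at 17592, 17069, 16339 and 19809 in WT animals 2, 3, 5 and 6. In the CD8+ subset, the values were 17249, 11906, 11993 and 11975 in the KO and 22785, 22131, 20393 and 21526 in the WT animals. The genotypes were fully separated in each subset, and the highest KO CD8+ value, in animal 1, stood well above the other KO values. The mean was 10313 ± 383 (SD, n = 4) for KO CD4+ and 17702 ± 1496 for WT CD4+ libraries (log2 fold change -0.78, SE 0.08, adjusted p = 0.000594, limma). KO CD8+ libraries averaged 13281 ± 2646 and WT CD8+ libraries 21709 ± 1017 (log2 fold change -0.73, SE 0.12, adjusted p = 0.00394). The call held in all 8 fits that left out 1 library in each subset, and the adjusted p then ranged from 0.00103 to 0.00407 for CD4+ and 5.64e-05 to 0.0178 for CD8+ libraries. The size of the difference was larger in magnitude than that of 84.1% of all genes tested in CD4+ and 81.4% in CD8+ cells.

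Psmb9, the inducible subunit that replaces Psmb6, was at 7599, 8917, 9840.2 and 9126 normalized counts in KO and 11586, 11664, 11343 and 11348 in WT CD4+ libraries, in the same order of animals. CD8+ libraries held 8631, 10019, 9606 and 9075 in KO and 11196, 10823, 11522 and 11728 in WT cells. No KO value reached a WT value of the same subset, and the WT libraries lay closer together than the KO libraries. On the log2 scale KO CD4+ cells differed by -0.38 (SE 0.08, adjusted p = 0.0155), and KO CD8+ cells by -0.28 (SE 0.07, adjusted p = 0.0151, limma). The call was lost without WT CD4+ replicate 6 (adjusted p = 0.0509), without WT CD8+ replicate 5 (0.0532) or 6 (0.0565), and when all 20 libraries were fitted together (0.107 in CD4+ and 0.209 in CD8+).

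The heavy chains differed in opposite directions, without passing the threshold. H2-K1 was at 172563, 109650.0, 178674 and 165037 normalized counts in KO and 190628, 185749, 200571 and 199693 in WT CD4+ libraries. In CD8+ libraries it was at 139099, 89475, 124561 and 113256 in KO and 152051, 136431, 150014 and 151215 in WT cells. KO animal 2 was lowest in both subsets, the CD4+ groups did not overlap, and in CD8+ cells KO animal 1 lay within the WT range. KO over WT, the log2 fold change of H2-K1 came to -0.34 for CD4+ (95% interval -0.70 to 0.02, adjusted p = 0.163, limma) and -0.36 for CD8+ cells (-0.65 to -0.06, adjusted p = 0.0779). It passed after quantile normalization in both subsets (-0.60 and -0.68, adjusted p = 0.0409 and 0.00949), and in CD8+ cells also by DESeq2 (0.0407), with libraries scaled to the same total (0.0412) and without KO CD8+ replicate 1 (0.0270).

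H2-D1 was at 26239, 19592, 22874 and 24154 normalized counts in KO and 19998, 19382, 20532 and 19949.8 in WT CD4+ libraries. CD8+ libraries held 23312, 20406, 17477 and 20114 in KO and 17721, 16767, 16913 and 17907 in WT cells. In each subset 3 KO libraries lay above all 4 WT libraries and 1 lay among them, animal 2 in CD4+ and animal 3 in CD8+ cells. KO over WT, that of H2-D1 came to 0.21 for CD4+ (0.01 to 0.41, adjusted p = 0.129, limma) and 0.22 for CD8+ cells (0.03 to 0.42, adjusted p = 0.0874). Without that 1 library it passed, at adjusted p = 0.0233 without KO CD4+ replicate 2 and 0.0156 without KO CD8+ replicate 3.

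The ratio of H2-K1 to H2-D1 within a library does not change when each library is divided by 1 factor, and it was computed after the values had been seen, as a description with no test. It was 6.58, 5.60, 7.81 and 6.83 in the KO and 9.53, 9.58, 9.77 and 10.0 in the WT CD4+ libraries. In CD8+ libraries it was 5.97, 4.38, 7.13 and 5.63 in KO and 8.58, 8.14, 8.87 and 8.44 in WT cells. The WT libraries of a subset kept this ratio within a narrow range, and every KO library of the subset lay below it. In DP cells the ratio was 5.69, 4.13, 6.86 and 5.69, lowest in animal 2 and highest in animal 3, as in both other KO subsets.

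The light chain, transporter and loading genes did not pass in either subset. B2m was at 79286, 69094, 92699.6 and 75685 normalized counts in KO and 88414, 87067, 95030.4 and 86168 in WT CD4+ libraries (-0.18, adjusted p = 0.262, limma), and at -0.05 on the log2 scale in CD8+ cells (adjusted p = 0.637). The groups overlapped in both subsets, but after quantile normalization B2m passed in CD4+ (-0.40, adjusted p = 0.0233) and CD8+ cells (-0.30, 0.0225). Tap1 was at 28925 ± 2333 in KO and 31724 ± 1186 in WT CD4+ cells (log2 difference -0.14, 95% interval -0.32 to 0.04), and quantile normalization was the only setting that called it (-0.28, adjusted p = 0.0381). In CD8+ cells its interval was -0.22 to 0.10. For Tap2, the other chain of the transporter, the interval of the log2 difference was -0.21 to 0.11 in CD4+ and -0.07 to 0.21 in CD8+ cells. For Tapbp it was -0.15 to 0.22 and -0.02 to 0.29.

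The other inducible subunits did not pass. Psmb8 differed by 0.02 on the log2 scale in CD4+ (-0.14 to 0.18) and by 0.14 in CD8+ cells (-0.03 to 0.31), and Psmb10 by 0.02 (-0.16 to 0.21) and 0.24 (-0.04 to 0.51). The signs of Tapbp, Psmb8 and Psmb10 in CD4+ cells and of Tap2 in CD8+ cells turned under quantile and total count scaling, and none of these 4 differences passed under any setting. Taking all 10 members, the median log2 fold change was -0.09 in CD4+ and 0.01 in CD8+ cells, against -0.05 and -0.04 over all genes tested. In CD4+ cells 3 members had groups that did not overlap, H2-K1, Psmb9 and Nlrc5, where this held for 25.6% of all genes. In CD8+ cells there were 2, Psmb9 and Nlrc5, against 30.6%. Whether the KO effect differed between CD8+ and CD4+ cells was tested with an interaction term over 16 libraries, and 0 members passed (limma, adjusted p at least 0.982). Of all genes 0.0161% passed, 0 members had an unadjusted p under 0.05, and edgeR and DESeq2 also called 0 members. For Nlrc5 the interval of this difference of differences was -0.26 to 0.36, and for Psmb9 -0.12 to 0.31.

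**Figure D2:**
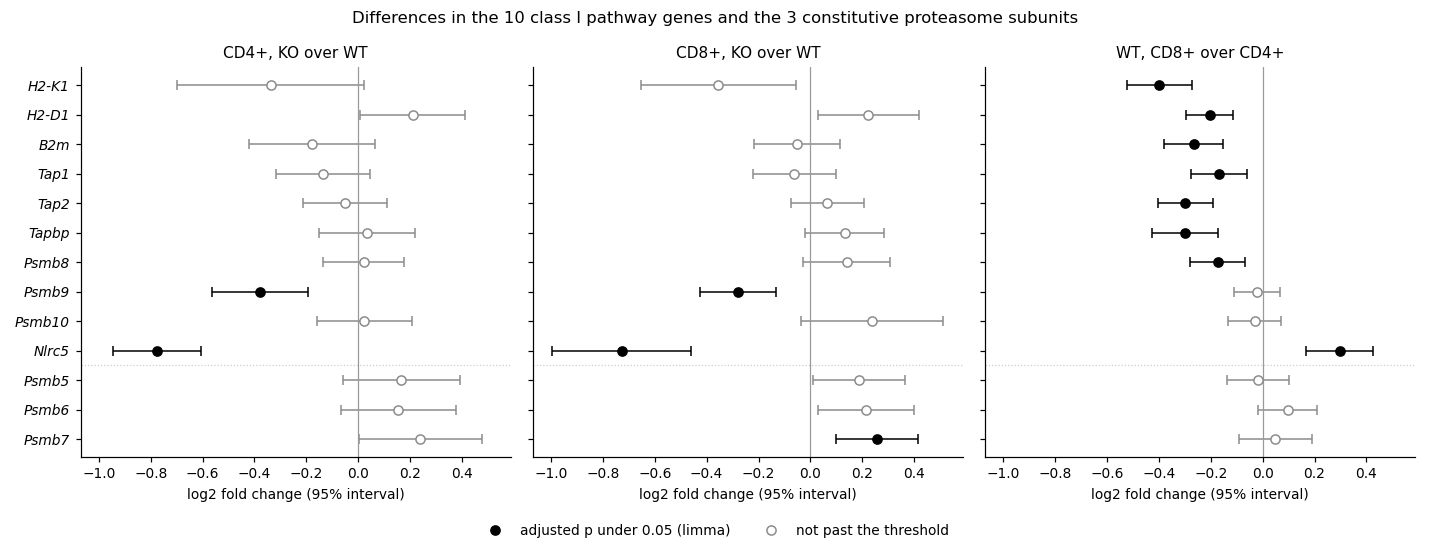
Log2 fold changes with 95% intervals (x axis) for KO over WT in CD4+ and in CD8+ cells and for CD8+ over CD4+ in WT cells; rows are the 10 genes and, below the dotted line, the constitutive subunits, and filled points had an adjusted p under 0.05 by limma. Nlrc5 and Psmb9 are the filled members in both KO over WT panels (the small differences of Tapbp, Psmb8 and Psmb10 in CD4+ cells and of Tap2 in CD8+ cells change sign with the scaling), whereas 7 members are lower and Nlrc5 is higher in the WT panel.

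Each inducible subunit was set against the constitutive subunit whose place it takes. On the log2 scale Psmb5 differed between KO and WT by 0.17 (adjusted p = 0.264) for CD4+ and 0.19 (0.110) for CD8+ cells, Psmb6 by 0.16 (0.283) and 0.21 (0.0857), and Psmb7 by 0.24 (0.135) and 0.26 (0.0271, limma). Only Psmb7 in CD8+ cells passed, and that call was lost without any 1 of the 4 WT CD8+ libraries (adjusted p up to 0.0889) and under quantile (0.0571) or total count scaling (0.106). The ratio of Psmb9 to Psmb6 was 1.18, 1.19, 1.62 and 1.70 in KO and 2.10, 1.94, 1.94 and 2.15 in WT CD4+ libraries. For CD8+ libraries the ratio was 1.30, 1.22, 1.41 and 1.39 in KO and 1.93, 1.82, 1.80 and 1.94 in WT cells. The genotypes did not overlap in either subset. The mean log2 difference was -0.53 in CD4+ and -0.49 in CD8+ cells (2-sided exact permutation test, p = 0.0286 in each, the smallest that 4 libraries against 4 allow). Adjusted over the 12 tests of the 3 pairs of subunits in 4 comparisons this gave 0.171, and 0 ratios passed. At this smallest p a separated ratio could not pass unless most of the 12 were separated too. The lack of calls therefore says nothing about the size of these differences.

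The ratios of Psmb8 to Psmb5 and of Psmb10 to Psmb7 overlapped between the genotypes. Psmb8 to Psmb5 was 5.98 in KO and 6.61 in WT CD4+ cells (geometric means), and 5.75 and 5.94 in CD8+ cells. Psmb10 to Psmb7 was 1.21 and 1.40 in CD4+ and 1.31 and 1.33 in CD8+ cells. Psmb9 was also compared, as a description, with Tap1, with which it shares the promoter region printed above. In CD4+ libraries their ratio was 0.276, 0.337, 0.311 and 0.303 in KO and 0.361, 0.367, 0.345 and 0.377 in WT cells, with no overlap. In CD8+ libraries it was 0.332, 0.351, 0.379 and 0.321 and 0.368, 0.401, 0.407 and 0.430, where KO animal 3 overlapped the WT libraries.

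**Figure D3:**
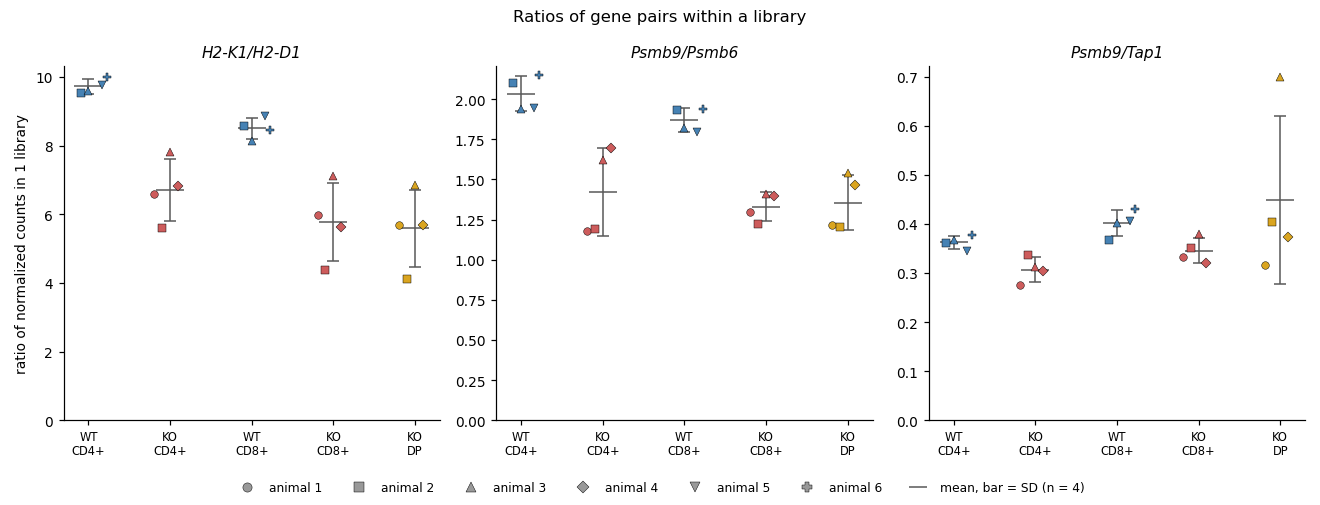
Ratio of the normalized counts of 2 genes within each library (y axis, from 0) for H2-K1 over H2-D1, Psmb9 over Psmb6 and Psmb9 over Tap1; points are libraries with the animal number as shape, bars mean and SD. KO libraries lie below all WT libraries of their subset for the first 2 ratios, and KO DP animal 3 reaches 0.699 for Psmb9 over Tap1.

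WT CD8+ and CD4+ cells were compared to give the level that each subset holds without the deletion. In WT cells 7 of the 10 members were lower in CD8+ than in CD4+ cells and 1, Nlrc5, was higher. This stands against 22.3% of 12559 genes called lower and 22.2% called higher. The largest fall was that of H2-K1, from 194160.0 ± 7186 (SD, n = 4) to 147428 ± 7379 normalized counts (log2 fold change -0.40, SE 0.06, adjusted p = 9.15e-05, limma). B2m fell from 89169.7 ± 4015 to 74136 ± 3073 (-0.27, adjusted p = 0.00101) and H2-D1 from 19965 ± 469.9 to 17327 ± 571 (-0.20, adjusted p = 0.00136). All 3 genes of transport and loading were lower as well, Tap1 (-0.17, adjusted p = 0.0144), Tap2 (-0.30, adjusted p = 0.000254) and Tapbp (-0.30, adjusted p = 0.00102). Psmb8 was lower too (-0.17, adjusted p = 0.0113), whereas Psmb9 (-0.02, adjusted p = 0.703) and Psmb10 (-0.03, adjusted p = 0.635) did not pass. Nlrc5 was at 22785, 22131, 20393 and 21526 in CD8+ and 17592, 17069, 16339 and 19809 in CD4+ cells of the same animals, higher in CD8+ cells of all 4 (log2 fold change 0.30, SE 0.06, adjusted p = 0.00117). Its sign was positive and that of the other 9 members negative, and the median over the 10 was -0.19 against 0.01 over all genes. Groups did not overlap for 7 members, against 41.8% of all genes. The call on Tap1 was lost under quantile normalization (0.0712) and without WT CD8+ replicate 3 (0.0503), and with all 20 libraries in 1 fit only Tap2 and Tapbp were called.

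In KO cells the same contrast gave -0.42 for H2-K1, -0.18 for Tap2, -0.20 for Tapbp and 0.35 for Nlrc5 on the log2 scale. The SD of log2 H2-K1 was 0.33 over KO CD4+ and 0.27 over KO CD8+ libraries, against 0.05 and 0.07 in WT cells. With limma, 0 members passed between KO CD8+ and KO CD4+ cells, where 4.22% of 12189 genes passed. Unadjusted, 3 members had p under 0.05, and edgeR and DESeq2 called 0. Libraries with the same number came from the same animal, and with the animal as a replicate block 4 members passed, against 18.9% of all genes: H2-K1 (-0.42, adjusted p = 0.00565), Tap2 (-0.18, adjusted p = 0.0491), Tapbp (-0.20, adjusted p = 0.0368) and Nlrc5 (0.35, adjusted p = 0.0281). H2-K1, Tap2 and Tapbp were lower and Nlrc5 was higher in the CD8+ than in the CD4+ library of all 4 KO animals, as they were in all 4 WT animals. The groups did not overlap for 3 members, Tap2, Tapbp and Nlrc5, against 10.1% of all genes. For Tap2, CD8+ values were 21617, 19863, 20973 and 21211 and CD4+ values 23726, 22109.5, 25206 and 23992. For Nlrc5 the CD8+ value of animal 1, 17249, exceeded the 11906 to 11993 of the other 3 animals, and all 4 exceeded the CD4+ range of 9996 to 10828.

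**Figure D4:**
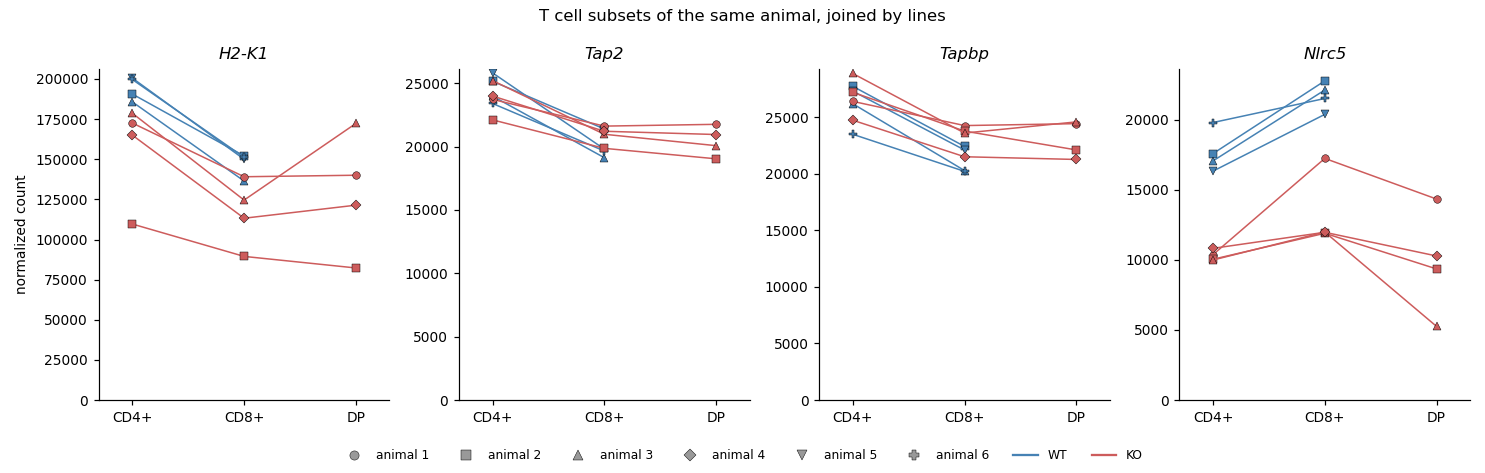
Normalized counts (y axis, from 0) of H2-K1, Tap2, Tapbp and Nlrc5 in the CD4+, CD8+ and, for KO, DP cells of each animal, joined by a line; blue is WT, red is KO, and shapes are animal numbers within a genotype. H2-K1, Tap2 and Tapbp go down and Nlrc5 goes up from CD4+ to CD8+ cells in all 8 animals, and KO animal 2 has the lowest H2-K1 in all 3 subsets.

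KO DP cells were compared with the KO CD8+ and CD4+ cells of the same animals. With limma, 0 members passed in either comparison, where 0.00823% of 12153 genes passed against CD8+ and 1.95% of 12175 against CD4+ cells. In both, 0 members had an unadjusted p under 0.05, and edgeR, DESeq2 and the replicate block called 0. H2-K1 was at 140044, 82274, 172310.0 and 121394 normalized counts in DP cells of animals 1 to 4, lowest in animal 2 as in the other subsets. Nlrc5 was at 14347, 9358, 5254 and 10283, a spread of 2.73-fold, or 1.53-fold without animal 3, and it lay below the CD8+ library of the same animal in all 4. Its log2 difference from CD8+ cells was -0.51 with an interval of -1.12 to 0.11, and -0.23 without the DP library of animal 3. Against CD4+ cells it was -0.16, and 0.11 without that library.

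The DP library of animal 3 decided most of the remaining values. The 3 inducible subunits lay 0.34, 0.34 and 0.33 above CD8+ cells on the log2 scale (Psmb8, Psmb9 and Psmb10), and 0.08, 0.12 and 0.03 without it. In this library Psmb8 was at 65286 against 30483 to 33436 in the other DP libraries, and B2m at 121429 against 66123 to 72974. Constitutive Psmb5 was highest there too, at 12738 against 5149 to 6478, so the ratio of Psmb8 to Psmb5 was 5.13, just below the 5.16 to 5.92 of the other DP libraries. Its neutrophil markers summed to 7334, the highest of the 20 libraries, and animal 3 was also the highest KO animal in CD4+ and CD8+ cells. Their part in these values was not tested. Tap2 and Tapbp were lower in DP than in CD4+ cells with no overlap (-0.22 and -0.22, adjusted p = 0.404 and 0.424, limma). Without the DP library of animal 3 these differences were -0.21 and -0.25. With all libraries Tap2 and Tapbp were the 2 members of 10 without overlap, against 11.2% of all genes. Against CD8+ cells 0 members and 2.7% of all genes had groups that did not overlap.

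Of 14 factors known to act on class I promoters, 4 were lower in CD4+ cells and 10 did not pass, and in CD8+ cells 3 were lower, 1 was higher and 10 did not pass. Over all genes tested, 9.77% were called lower and 8.59% higher in CD4+ cells, and 12.5% and 12.6% in CD8+ cells, and the counts of all lists that follow are given beside these shares. The median log2 fold change of the 14 factors was -0.08 for CD4+ and -0.09 for CD8+ cells, against -0.05 and -0.04 over all genes. Rfx5, a subunit of the RFX complex with which Nlrc5 acts, was at 1206, 1041, 1131 and 1059 in KO and 1532, 1698, 1541 and 2073 in WT CD4+ libraries (-0.62, adjusted p = 0.00862, limma), with no overlap. In CD8+ cells it differed by -0.75 (adjusted p = 0.00942), and both calls held in all 8 fits without 1 library. Irf1, an interferon-induced activator of class I and of Psmb9 and Tap1, was lower in CD8+ cells (-0.49, adjusted p = 0.00238), at 11040.1 ± 497 (SD, n = 4) against 15543 ± 1119. In CD4+ cells it was lower as well (-0.42, adjusted p = 0.0421), a call kept in 2 of 8 fits without 1 library. That call was also lost without the intensity trend (0.0881) and by edgeR (0.0613). The higher factor in CD8+ cells was Nfkb1 (0.30, adjusted p = 0.0220). Ciita, the class II counterpart of Nlrc5, fell in CD4+ cells from 219.8 ± 79.0 to 37.8 ± 21.97 (-2.62, adjusted p = 0.00544), and in CD8+ cells its adjusted p was 0.0557 at -2.67. It passed in CD8+ cells by DESeq2 (0.00841), with a pseudocount of 10 (0.0216), with all 20 libraries in 1 fit (0.0184) and without KO CD8+ replicate 1 (0.0442), 2 (0.00525, where the difference was -1.58) or 3 (0.0404).

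Ifng encodes interferon gamma, which induces the class I pathway, and was lower in KO cells of both subsets. It was at 2014, 2523, 5370.2 and 3927 in KO and 10544, 10611, 11937 and 11556 in WT CD8+ libraries, with no overlap (log2 fold change -1.79, SE 0.26, adjusted p = 0.00256, limma). In CD4+ cells it was at 1836, 4761, 3438 and 3554 and 4647, 5763, 7774 and 7219, where KO animal 2 overlapped the WT range (-0.95, adjusted p = 0.0322). The CD4+ call was lost without WT CD4+ replicate 3 (0.0682), 5 (0.0866) or 6 (0.0993), without the intensity trend (0.0773) and with all 20 libraries in 1 fit (0.0895). Of 23 genes of interferon gamma signalling and response, 9 were lower and 2 higher in KO CD4+ cells, and 8 were lower and 3 higher in KO CD8+ cells. The median of their log2 fold changes was -0.26 for CD4+ and -0.06 for CD8+ cells, against -0.05 and -0.04 over all genes. Over all genes the shares called lower were 9.77% and 12.5%. The lower ones included the response genes Iigp1 (-1.10 in CD4+ and -0.99 in CD8+, adjusted p = 0.0113 and 0.00916) and Gbp4 in CD8+ cells (-0.79, adjusted p = 0.00384). Cxcl10, which encodes a chemokine, was lower in CD4+ cells (-1.40, adjusted p = 0.0233), a call kept in 3 of 8 fits without 1 library. Those higher included, chosen after their values were seen, the receptor chain Ifngr1 (0.91 in CD4+ and 0.70 in CD8+) and the kinase Jak1 (0.39 and 0.61). In WT cells the same list was mostly lower in CD8+ than in CD4+ cells, with 14 lower and 3 higher against 22.3% and 22.2% of all genes, among the lower Iigp1 (-2.49, adjusted p = 3.45e-08) and Socs1 (-1.18, adjusted p = 9.52e-08), whereas Ifng was higher (0.84, adjusted p = 0.000102). With all 20 libraries in 1 fit that call on Ifng was lost (adjusted p = 0.138, limma).

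**Figure D5:**
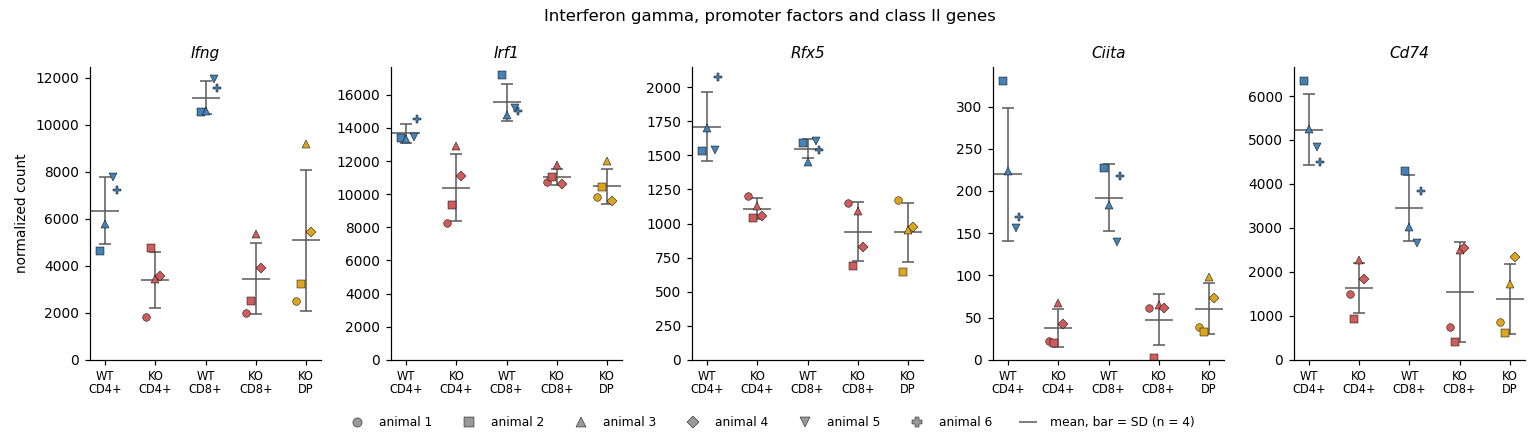
Normalized counts (y axis, from 0) of Ifng, Irf1, Rfx5, Ciita and Cd74 in the 20 libraries by group; points are libraries with the animal number as shape, bars mean and SD. KO libraries lie below the WT libraries of the same subset without overlap for Rfx5, Irf1, Ciita and Cd74, and Ifng in CD8+ cells separates while in CD4+ cells KO animal 2 overlaps.

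Of 10 MHC class II genes that passed the filter, 5 were lower and 1 higher in KO CD4+ cells, and 3 were lower and 2 higher in KO CD8+ cells, against 9.77% of all genes lower in CD4+ and 12.5% in CD8+ cells. The median of their log2 fold changes was -1.26 for CD4+ and -1.40 for CD8+ cells, against -0.05 and -0.04 over all genes. Group medians of H2-DMa, H2-Oa and H2-Ob were higher in KO than in WT cells of both subsets. In CD4+ cells they were 1818 against 1057.5, 151.9 against 89.5 and 170.6 against 103.4. In CD8+ cells they were 1573 against 792, 206 against 89.4 and 101 against 59.5. Cd74, the invariant chain, was at 1495, 925, 2277 and 1848 in KO and 6351, 5246, 4847 and 4507 in WT CD4+ libraries (-1.74, adjusted p = 0.00316, limma), and its CD8+ difference was -1.53 (adjusted p = 0.0644). That difference passed without KO CD8+ replicate 3 (0.0246) or 4 (0.0389) and with all 20 libraries in 1 fit (0.0383). H2-Aa (-2.12, adjusted p = 0.0162) and H2-Eb1 (-2.09, adjusted p = 0.00700) were lower in CD4+ cells, and in CD8+ cells H2-Aa (-2.02, adjusted p = 0.00493), H2-Eb1 (-1.97, adjusted p = 0.0162) and H2-Ab1 (-1.93, adjusted p = 0.0247). The call on H2-Aa in CD4+ cells was lost without WT CD4+ replicate 6 (0.0503), that on H2-Eb1 in CD8+ cells without WT CD8+ replicate 6 (0.0525), and that on H2-Ab1 without any 1 WT CD8+ library (up to 0.0734). These genes are abundant in dendritic and B cells. Of 13 myeloid and dendritic markers, 7 were lower in KO CD4+ and 4 in KO CD8+ cells, 0 were higher, and 6 and 9 did not pass. Chosen after their values were seen, the dendritic markers Flt3, Clec9a, Xcr1 and Zbtb46 were lower in KO cells of both subsets. Xcr1 was at 226 ± 64.0 against 428 ± 19.6 in CD4+ cells. The KO CD4+ medians of Itgax (1133 against 853), Itgam (398 against 268) and Fcgr3 (202 against 182) were not lower. In CD8+ cells the medians of Csf1r (155 against 150), Fcgr3 (215 against 160) and Cd68 (1057 against 991) were not lower. That of Itgam (1795 against 1557) was not lower there either, while that of Itgax was (6462 against 7301). The part of such cells in the class II values was not tested.

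Among 15 other class I chains that passed the filter, H2-Q5 was lower in KO CD4+ cells (-0.64, adjusted p = 0.00926, limma) and 14 did not pass. In CD8+ cells 3 were lower and 1 higher, led by H2-Q5 (-0.70, adjusted p = 0.00171), H2-Q4 (-0.59, adjusted p = 0.0292) and the higher Mr1, which presents vitamin metabolites (0.54, adjusted p = 0.0372). The calls on H2-Q4 and Mr1 were each kept in 3 of 8 fits without 1 library. H2-Q5 and H2-Q4 share 39.4% and 24.02% of their 47-base windows with other genes, so reads could have been split among these copies. Of 10 other loading and trimming genes, the chaperones Calr (-0.52, adjusted p = 0.0484) and Hspa5 (-0.59, adjusted p = 0.0499) were lower in KO CD4+ cells, calls kept in 1 of 8 fits each, and the aminopeptidase Lnpep was higher in KO CD8+ cells (0.62, adjusted p = 0.00308). Of 11 other 20S subunits, 3 were higher in KO CD4+ and 4 in KO CD8+ cells, against 8.59% and 12.6% of all genes, with Psmb3 at 0.39 (0.0248) and 0.37 (0.0178), Psmb4 at 0.31 (0.0402) and 0.35 (0.0161) and Psmb1 at 0.27 (0.0310) and 0.26 (0.0448). Of the 8 fits without 1 library, Psmb3, Psmb4 and Psmb1 were called in 3, 2 and 3 for CD4+ and in 6, 7 and 1 for CD8+ cells. With libraries scaled to the same total, Psmb1 was called in neither subset (0.0902 and 0.170) and Psmb3 (0.0514) and Psmb4 (0.0985) not in CD4+ cells. Of 9 activator and assembly genes, Psme4, a proteasome activator, was higher in KO CD8+ cells (0.49, adjusted p = 0.00605). In WT cells the subsets differed for Psme2 (-0.26, adjusted p = 0.000201), Psmg1 (-0.61, adjusted p = 0.000252) and Psmg2 (0.35, adjusted p = 0.00196), the interferon-inducible activator and 2 assembly chaperones, and for the class Ib chain H2-T23 (-0.32, adjusted p = 0.00024) and the tapasin-like Tapbpl (0.43, adjusted p = 1.68e-05). With all 20 libraries in 1 fit the calls on Psme2 (0.418), Psmg2 (0.125) and H2-T23 (0.234) were lost.

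Over the 20 libraries, members differed in how closely they followed each other. B2m had the highest correlation with the mean standardized profile of the other 9 (Pearson r = 0.886) and H2-K1 the second highest (0.670), while Nlrc5 went against it (-0.367). The highest correlation between 2 members was that of Psmb8 and Psmb10 (0.873) and the lowest that of Psmb8 and Nlrc5 (-0.741). These are descriptions over libraries that share animals, and several rested on the DP library of KO animal 3. Over the 19 other libraries B2m was again highest (0.846), followed by Tap2 (0.790, against 0.524 with it) and Tap1 (0.742, against 0.422), while Nlrc5 was at -0.0741. The pair of Psmb8 and Psmb10 fell to 0.457 and that of Psmb8 and Nlrc5 was at -0.632, the highest pair was H2-K1 and B2m (0.849) and the lowest H2-D1 and Psmb9 (-0.696, against -0.186 with it). Among 10699 other genes with a mean of at least 50, those whose profile was most like the mean of the 10 were H2-T23, a class Ib chain (r = 0.935), Tbrg1 (0.926), Saysd1 (0.875), Zap70, a kinase of T cell receptor signalling (0.867), and Fam104a (0.862). Without that library their r lay between 0.792 and 0.894. Summed over the 10 members, 1.08 to 1.12% of normalized counts fell on them in WT CD4+, 0.762 to 1.00% in KO CD4+, 0.877 to 0.964% in WT CD8+, 0.698 to 0.857% in KO CD8+ and 0.662 to 0.979% in KO DP libraries. Without the DP library of animal 3 the highest KO DP share was 0.845%.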

How the data were processed

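RNA was measured in 20 libraries of sorted donor T cells, 4 for each of 5 groups named by the labels. The authors aligned strand-specific reads of poly(A) RNA to mm10 with STAR (2.7.2b per the processing notes), counted them on UCSC genes with summarizeOverlaps, divided them by DESeq2 size factors and deposited these values, whose unit is a signal per gene (normalized counts). The members, by name, and all gene lists were chosen with earlier results of these data known. For 100% of values the deposited signal gave whole reads when multiplied back by a size factor (tolerance 0.001 reads), between 37547651 and 46966318 per library, and edgeR on these reads called 2265 genes between KO and WT CD4+ cells and 3055 in CD8+ cells. 

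Values were tested as log2(normalized count + 1) with limma 3.58.1 (empirical Bayes with an intensity trend, R 4.3.3) over genes with a mean of at least 10 in the libraries compared, on the log2(value + 1) scale on which all fold changes are given. Benjamini-Hochberg adjustment ran over all genes tested, with a threshold of 0.05. edgeR 4.0.16 and DESeq2 1.42.0 on whole reads, other scalings, filters and pseudocounts, a fit of all libraries, the replicate block and the omission of each library were alternatives. Ratios of subunits were compared with 2-sided exact permutation tests, whose smallest p is 0.0286 (70 arrangements). The 10 members, the constitutive subunits, Irf1, Ifng, Rfx5, Ciita, Cd74 and up to the 3 called genes of each list and comparison with the largest fold change are named, and Ifngr1, Jak1 and the marker genes were named after their values were seen. Values of some listed genes are not reported here. Same-numbered libraries came from the same animal within a genotype: their deviations from the group mean correlated at 0.394 to 0.761 over KO subsets and at 0.250 to 0.316 over WT subsets. Libraries of a group are different animals by these numbers, and none was a copy of another (over 30 pairs, the lowest chi-square divided by its degrees of freedom was 11.03). Exon lengths, coordinates and promoters are from RefSeq on GRCm38.p6. Intervals are 95% intervals from limma. The scripts were tested on simulated data.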

Additional observations from a re-analysis of the deposited data

Results flagged for a closer look

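In 6 of 50 combinations of a member and a group, 1 of the 4 libraries stood apart by Dixon's test, where chance alone gives about 1 in 20. In WT CD8+ cells H2-K1 was at 136431 normalized counts in replicate 3, against 150014 to 152051 in the other 3 libraries. Of the KO DP libraries, that of animal 3 stood apart for 3 members: B2m was at 121429 normalized counts in replicate 3, against 66123 to 72974 in the other 3 libraries, Tap1 at 26476 normalized counts in replicate 3, against 27839 to 28087 in the other 3 libraries, and Psmb8 at 65286 normalized counts in replicate 3, against 30483 to 33436 in the other 3 libraries. In KO CD4+ cells Psmb10 was at 8311 normalized counts in replicate 4, against 10078 to 10267 in the other 3 libraries. In KO CD8+ cells Nlrc5 was at 17249 normalized counts in replicate 1, against 11906 to 11993 in the other 3 libraries, and this library lies closest to the WT range.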

How the results depend on the processing

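Nlrc5 was called lower in KO cells under 10 of 11 alternatives in CD4+ and 11 of 11 in CD8+ cells, besides all fits without 1 library. Between KO and WT CD4+ cells the number of members past the threshold was 5 under quantile normalization, 1 with all 20 libraries in 1 fit, 0 with the replicate block and 1 to 3 when 1 library was left out, against 2. In CD8+ cells it was 4, 1, 1 and 1 to 3, against 2. The block between KO and WT rests on the numbers 2 and 3, which the genotypes share only as numbers (different animals, same-number correlations of 0.105 to 0.127 in CD4+ and 0.0554 to 0.165 in CD8+ cells), and with it 26 genes were called, against 2274, in CD4+ and 89, against 3118, in CD8+ cells. There Nlrc5 was at -0.79 (adjusted p = 0.117) in CD4+ cells, and Psmb9 at -0.31 (0.322) in CD4+ and -0.17 (0.381) in CD8+ cells. With the replicate block of the same animals 4 members differed between KO CD8+ and CD4+ cells, against 0, and with all 20 libraries in 1 fit 2 differed between WT CD8+ and CD4+ cells, against 8. Over all genes, calls between KO and WT numbered 1403 without the trend and 1285 with all libraries in 1 fit in CD4+ cells, 2014 with all libraries in 1 fit in CD8+ cells, and 628 to 2963 in CD4+ cells without 1 library, with 628 without WT CD4+ replicate 6, 976 without replicate 3, 1025 without replicate 5, 1106 without replicate 2 and 1352 without KO CD4+ replicate 1. In CD8+ cells the count was 1633 to 1753 without any 1 of the WT libraries. Between KO CD8+ and KO CD4+ cells 514 genes were called, against 299 without the trend, 884 with all libraries in 1 fit, 956 by DESeq2 and 2305 with the block. Between KO DP and KO CD4+ cells 237 were called, against 124, 1453, 728 and 860, and without 1 library these counts fell to as few as 233 and 84, each without KO CD4+ replicate 3. Between WT subsets 5592 were called, against 1595 with all libraries in 1 fit. Between KO DP and KO CD8+ cells DESeq2 called 3 genes, against 1, and for genotype by subset 2 were called, against 7 with no filter, 0 without the trend, 1 with all libraries in 1 fit, 1 by edgeR, 21 by DESeq2 and 173 with the block. Small differences, none past the threshold, changed sign with the scaling. Under quantile normalization KO minus WT (log2) was -0.090 for Tapbp, -0.098 for Psmb8 and -0.039 for Psmb10 in CD4+ cells and -0.064 for Tap2 in CD8+ cells, and under total count scaling -0.051, -0.065, -0.062 and -0.039. For KO DP against KO CD8+ cells B2m was -0.14 and Tap1 -0.042 under quantile normalization, Tap1 -0.038 under total count scaling and Tapbp 0.000505 with a common 75th percentile. Against KO CD4+ cells B2m was -0.19 and -0.062 under quantile and total count scaling. The interaction was -0.0077 for Nlrc5 under quantile normalization and -0.0054 for H2-D1 under total count scaling. With the mean of the 11 other 20S subunits as denominator, Psmb8 differed by 0.000398 and Psmb10 by 0.099 between KO and WT CD8+ cells, Psmb8 by 0.000783 and Psmb10 by -0.012 between KO DP and KO CD8+ cells, and Psmb9 by 0.037 between KO DP and KO CD4+ cells. Leaving out 1 library at a time turned the sign of differences with these ranges: between KO and WT CD4+ cells Tapbp -0.017 to 0.072, Psmb8 -0.0084 to 0.043 and Psmb10 -0.0056 to 0.096, and between KO and WT CD8+ cells Psmb10 over Psmb7 -0.099 to 0.044. Between KO DP and KO CD8+ cells they were H2-K1 -0.042 to 0.31, B2m -0.060 to 0.23, Tap1 -0.0025 to 0.055, Tap2 -0.063 to 0.000797, Tapbp -0.051 to 0.026, Psmb9 over Psmb6 -0.042 to 0.075 and Psmb10 over Psmb7 -0.14 to 0.098. Between KO DP and KO CD4+ cells they were H2-D1 -0.11 to 0.033, B2m -0.20 to 0.094, Nlrc5 -0.37 to 0.11, Psmb9 over Psmb6 -0.14 to 0.034 and Psmb10 over Psmb7 -0.018 to 0.22. Between WT subsets they were Ciita -0.30 to 0.059, Psmb5 -0.061 to 0.022 and Psmb7 -0.0022 to 0.096, and for the interaction H2-K1 -0.18 to 0.10, H2-D1 -0.065 to 0.084 and Nlrc5 -0.083 to 0.096. The causes were not tested. The lowest value of a member in any library was 5254 normalized counts (Nlrc5).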
